A study of Mus musculus with 4 samples.

Results

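The 10 genes described here encode fibroblast growth factors (FGFs) of the developing ear, Fgf3, Fgf8, Fgf9, Fgf10, Fgf16 and Fgf20, and their tyrosine kinase receptors, Fgfr1, Fgfr2, Fgfr3 and Fgfr4. They were chosen by name, 10 of the 34866 genes in the deposited table, and each matched 1 row. RNA was sequenced from otic vesicles, the epithelial sacs that form the inner ear, of C57/BL6 mouse embryos at day 11.5 of development. There were 2 libraries of wild-type embryos (WT 1 and WT 2) and 2 of Meis2 mutants (KO 1 and KO 2), whose titles call them knockouts of Meis2, a TALE homeodomain transcription factor gene. The labels leave unstated the mutant allele, any tissue restriction of the mutation and the number of embryos per library. Each p-value thus weighs a difference against the scatter of these 4 libraries alone, and that scatter may be technical.

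FGFs are secreted proteins that bind receptor tyrosine kinases together with heparan sulfate, and the receptors pass the signal on through adaptor proteins, Ras and MAP kinases. Fgf3 and Fgf10 belong to the subfamily that signals mainly through the epithelial splice forms of Fgfr2 and Fgfr1, and together they are required for the otic vesicle to form. Fgf9, Fgf16 and Fgf20 form a second subfamily. Fgf9 and Fgf20 of the otic epithelium act on the mesenchyme around it, and Fgf20 also on the sensory patch of the cochlea. Values are gene-level TPM, a transcript level per length that sums to 1000000 in every library. Such values cannot separate the epithelial and mesenchymal splice forms of a receptor.

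All 4 libraries held the defining markers of otic epithelium, with 13 of 13 listed genes above 1 TPM in each. Their summed level was 1868 TPM (WT 1), 1661 TPM (WT 2), 1439 TPM (KO 1) and 1513 TPM (KO 2), so that both KO libraries lay below both WT libraries. Markers of other tissues were also present, among them 12 of 12 genes of periotic mesenchyme and 11 of 11 of otic ganglion neurons above 1 TPM in each library. No listed marker was at 0 in every library. Meis2 itself was at 79.0 and 88.7 TPM (WT) beside 73.2 and 76.6 TPM (KO). With the altered part of the gene unstated, that level does not check the labels. Between genotypes, 0 of the 14496 genes tested passed the threshold (limma adjusted p below 0.05), and 507 had an unadjusted p below 0.05.

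Fgfr1 and Fgfr2 transcripts were more abundant than those of any ligand in every library, whereas Fgfr3 and Fgfr4 were among the scarce ones. In WT the order of mean levels ran from Fgfr1 at 76.6 ± 4.82 TPM and Fgfr2 at 67.5 ± 1.40 TPM, through Fgf9 at 22.3 ± 1.98 TPM and Fgf10 at 13.7 ± 2.08 TPM, to Fgfr4 at 1.24 ± 0.177 TPM (SD, n = 2 each). Between these ends stood Fgfr3, Fgf20, Fgf3, Fgf8 and Fgf16, from 4.60 TPM down to 2.34 TPM. Neighbours in this order whose WT libraries overlapped were Fgfr3 with Fgf20 and Fgf3 with Fgf8. Fgfr1 stood above 84.2% of all genes tested in mean WT level, Fgf9 above 53.8% and Fgfr4 above 4.01%. In KO the first 5 places were held by the same genes in the same order, but the libraries of Fgf9 and Fgf10 overlapped. Fgf8 passed Fgf20 and Fgf3, and Fgfr4 passed Fgf16.

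**Figure D1:**
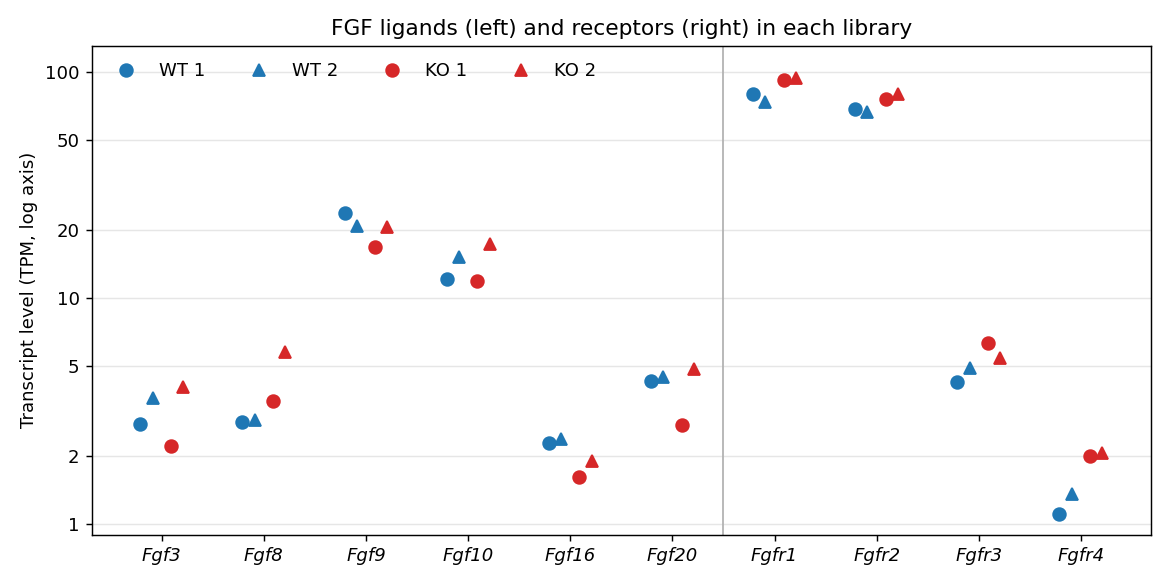
Level of each of the 10 genes in each library, in TPM on a log axis. Blue marks are WT, red marks KO, circles the libraries numbered 1 and triangles those numbered 2. For the 4 receptors, both red marks lie above both blue marks, while for Fgf3, Fgf10 and Fgf20 the colours are mixed.

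The 4 receptor genes all stood higher in KO, and for each of them both KO libraries lay above both WT libraries, as they did for 19.2% of all genes tested. Their log2 differences, on the log2(TPM + 1) scale and always KO minus WT, ran from 0.20 to 0.44 with a median of 0.28, against a median of 0.03 over all genes tested. None passed the threshold over all genes, which 0% of genes did. The unadjusted limma p was below 0.05 for Fgfr1 and Fgfr2, 2 of the 10 genes, against 3.50% of all genes tested. That count depended on the settings. Without the variance trend the unadjusted limma p was 0.051 for Fgfr1 and 0.085 for Fgfr2. That of Fgfr4 was then 0.014, against 0.104 with the trend. For Fgfr2 the limma p was 0.065 after median-of-ratios scaling and 0.060 after quantile normalization. With 1 library left out, the limma p of Fgfr2 ran from 0.074 to 0.163, and that of Fgfr1 was 0.062 without KO 1, 0.081 without KO 2, 0.102 without WT 2 and 0.028 without WT 1.

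Gene positions are those of GENCODE on GRCm38. Fgfr1 (ENSMUSG00000031565.18, chromosome 8, 25513654 to 25575718), the receptor needed for the sensory patch of the cochlea, was at 80.0 TPM (WT 1) and 73.2 TPM (WT 2) beside 91.5 TPM (KO 1) and 93.4 TPM (KO 2). The lowest KO value stood above the highest WT value, and the KO libraries lay closer together than the WT libraries. On the log2 scale the difference was 0.27 (SE 0.077; limma adjusted p = 1.00, unadjusted p = 0.020), and the mean KO level was 1.21 times the mean WT level. Fgfr2 (ENSMUSG00000030849.18, chromosome 7, 130162451 to 133123350), whose epithelial splice form receives Fgf3 and Fgf10 signals, was at 68.5 TPM (WT 1), 66.5 TPM (WT 2), 76.0 TPM (KO 1) and 79.6 TPM (KO 2). Again the genotypes did not overlap, and the difference was 0.20 (SE 0.070; limma adjusted p = 1.00, unadjusted p = 0.037), a ratio of 1.15. A transcript annotated to Fgfr2 shares exon sequence with Ctbp2 on the same strand, which makes this gene model unusually long. Ctbp2 was at 104.7, 108.2, 96.8 and 118.8 TPM in the same order of libraries, and its genotypes overlapped.

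Fgfr3 (ENSMUSG00000054252.17, chromosome 5, 33721674 to 33737068 in the later version of this gene model), later the receptor of pillar cells in the organ of Corti, was at 4.27 TPM (WT 1), 4.93 TPM (WT 2), 6.32 TPM (KO 1) and 5.44 TPM (KO 2). The gap between the genotypes was narrow, from WT 2 to KO 2, and the difference was 0.30 (SE 0.16; limma adjusted p = 1.00). Fgfr4 (ENSMUSG00000005320.9, chromosome 13, 55152640 to 55168759), best known as the liver receptor for Fgf15, was the scarcest of the 10 in WT, at 1.11 TPM (WT 1) and 1.36 TPM (WT 2) beside 2.00 TPM (KO 1) and 2.06 TPM (KO 2). Its mean KO level was 1.64 times the WT level, and its log2 difference was 0.44 (SE 0.22; limma adjusted p = 1.00). Values this low depend on the pseudocount. With 5 TPM in place of 1 TPM the differences of Fgfr3 and Fgfr4 were 0.18 and 0.17, and with 0.1 TPM that of Fgfr4 was 0.68.

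Fgfr1 and Fgfr2 made up most of the receptor level in every library. Fgfr1 gave 50.1% to 52.0% of the summed receptor level and Fgfr2 43.2% to 45.5%, so that these 2 genes together made up 95.3% to 96.5%. The share of Fgfr4 was 0.723% and 0.933% in the WT libraries and 1.14% in both KO libraries. The ratio of Fgfr3 to Fgfr4 was 3.84 and 3.62 in WT against 3.15 and 2.64 in KO, and that of Fgfr1 to Fgfr2 was 1.17 and 1.10 against 1.20 and 1.17. None of these 3 quantities overlapped between genotypes, nor did the share of Fgfr2. The shares of Fgfr1, of Fgfr3 and of Fgfr1 and Fgfr2 together did overlap. For Fgfr1 to Fgfr2 the gap was narrow, from 1.169 (WT 1) to 1.174 (KO 2). Of all genes tested, 19.2% had both KO libraries above both WT libraries and 10.5% had both below. The receptor sum was 153.9 TPM (WT 1), 146.0 TPM (WT 2), 175.9 TPM (KO 1) and 180.5 TPM (KO 2). This put both KO sums above both WT sums.

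**Figure D2:**
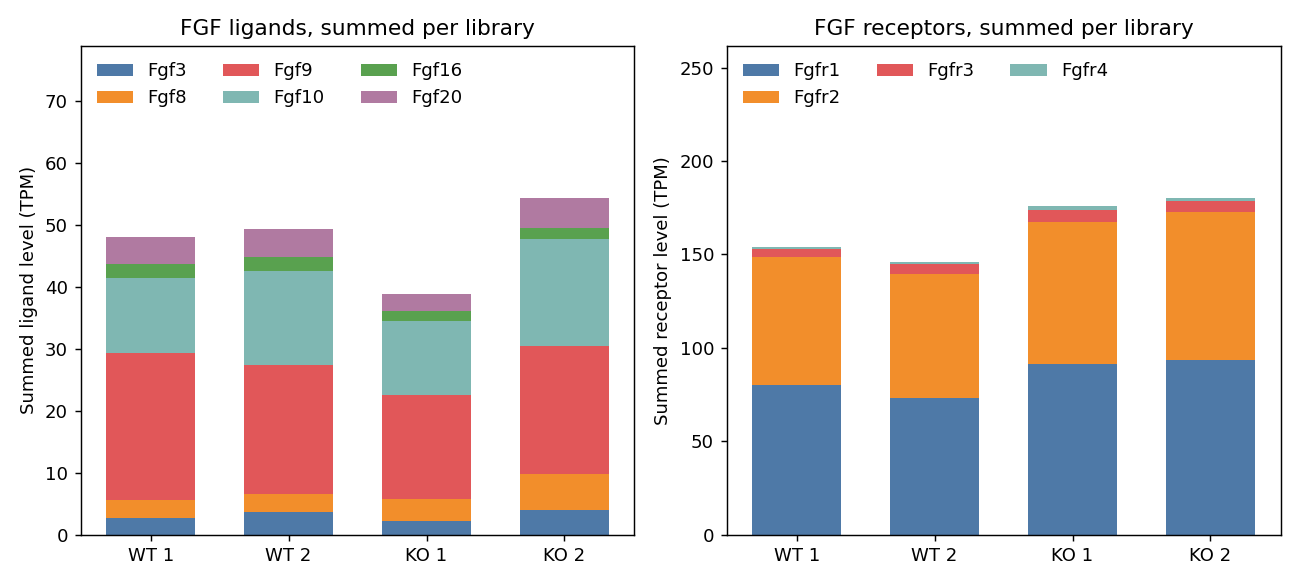
Summed TPM of the 6 ligands (left) and the 4 receptors (right) in each library, stacked by gene. The ligand sum is lowest in KO 1 (38.8 TPM) and highest in KO 2 (54.5 TPM), with WT between, whereas the receptor sum is higher in both KO libraries.

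Among the 6 ligands there was no common direction. Fgf8 stood higher in both KO libraries than in both WT libraries, which was 1 of 6 ligands against 19.2% of all genes tested, Fgf9 and Fgf16 stood lower in both, 2 of 6 against 10.5% of all genes tested, and Fgf3, Fgf10 and Fgf20 overlapped. The median log2 difference of the ligands was -0.13. Their sum, 48.1 TPM (WT 1), 49.4 TPM (WT 2), 38.8 TPM (KO 1) and 54.5 TPM (KO 2), enclosed the WT range. The ratio of receptor sum to ligand sum was 3.20 and 2.95 in WT and 4.53 and 3.31 in KO.

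Fgf9 (ENSMUSG00000021974.15, chromosome 14, 58070547 to 58112720) was the most abundant ligand in every library, at 23.7 TPM (WT 1) and 20.9 TPM (WT 2) beside 16.8 TPM (KO 1) and 20.6 TPM (KO 2). KO 2 lay just under WT 2, and the distance between the genotypes came from KO 1 and WT 1. On the log2 scale the difference was -0.25 (SE 0.14; limma adjusted p = 1.00), with -0.47 for KO 1 minus WT 1 and -0.02 for KO 2 minus WT 2. It was -0.11 without KO 1, -0.16 without WT 1 and -0.38 without KO 2. Fgf16 (ENSMUSG00000031230.3, chromosome X, 105764279 to 105774939), of the same subfamily, was at 2.29 TPM (WT 1), 2.39 TPM (WT 2), 1.62 TPM (KO 1) and 1.91 TPM (KO 2). The WT libraries were close together and both KO libraries lay below them, with a log2 difference of -0.28 (SE 0.20; limma adjusted p = 1.00) and a KO level 0.754 times that of WT. The difference was -0.12 with a pseudocount of 5 TPM.

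Fgf20 (ENSMUSG00000031603.14, chromosome 8, 40279166 to 40308331), the third gene of this subfamily and required for the outer part of the cochlear sensory patch, did not separate the genotypes. It was at 4.28 TPM (WT 1) and 4.48 TPM (WT 2) beside 2.73 TPM (KO 1) and 4.86 TPM (KO 2), so that KO held both the lowest and the highest value. On the log2 scale the difference was -0.20 (SE 0.27; limma adjusted p = 1.00), with -0.50 and 0.10 between libraries numbered 1 and 2. Leaving out KO 1 turned it to 0.12, leaving out KO 2 gave -0.53, and a pseudocount of 5 TPM gave -0.10.

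Fgf8 (ENSMUSG00000025219.13, chromosome 19, 45736798 to 45742915), which takes part in otic induction and is made by inner hair cells later, had the largest log2 difference of the 10 genes with a pseudocount of 1 TPM, and it did not pass the test. With 0.1 TPM it was at 0.64, below Fgfr4. It was at 2.82 TPM (WT 1) and 2.90 TPM (WT 2) beside 3.51 TPM (KO 1) and 5.79 TPM (KO 2). Both WT libraries lay close together, and KO 2 stood well above KO 1. On the log2 scale the difference was 0.52 (SE 0.25; limma adjusted p = 1.00), a ratio of 1.63, and it rested largely on KO 2. Without KO 2 it was 0.23, without KO 1 it was 0.82, and with a pseudocount of 5 TPM it was 0.29. As a share of the ligand sum Fgf8 was at 5.87% in both WT libraries, 9.05% in KO 1 and 10.6% in KO 2.

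Fgf10 (ENSMUSG00000021732.14, chromosome 13, 118669791 to 118792115), made by the neurosensory part of the vesicle and needed for the semicircular canals, was at 12.2 TPM (WT 1) and 15.1 TPM (WT 2) beside 11.9 TPM (KO 1) and 17.3 TPM (KO 2). Fgf3 (ENSMUSG00000031074.14, chromosome 7, 144838083 to 144844436), needed for the endolymphatic duct, was at 2.77 TPM (WT 1), 3.62 TPM (WT 2), 2.22 TPM (KO 1) and 4.04 TPM (KO 2). Both genes were higher in the libraries numbered 2 than in those numbered 1, in either genotype, and KO enclosed the WT range. The log2 differences between genotypes were 0.07 for Fgf10 (SE 0.22) and -0.05 for Fgf3 (SE 0.29), both with a limma adjusted p of 1.00. These 2 signs depended on single libraries. Fgf10 was at -0.18 with KO 2 left out and -0.07 with WT 1 left out, but at 0.22 with WT 2 and 0.33 with KO 1 left out. Fgf3 was at 0.27 with KO 1 left out and 0.09 with WT 2 left out, but at -0.20 with WT 1 and -0.38 with KO 2 left out.

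**Figure D3:**
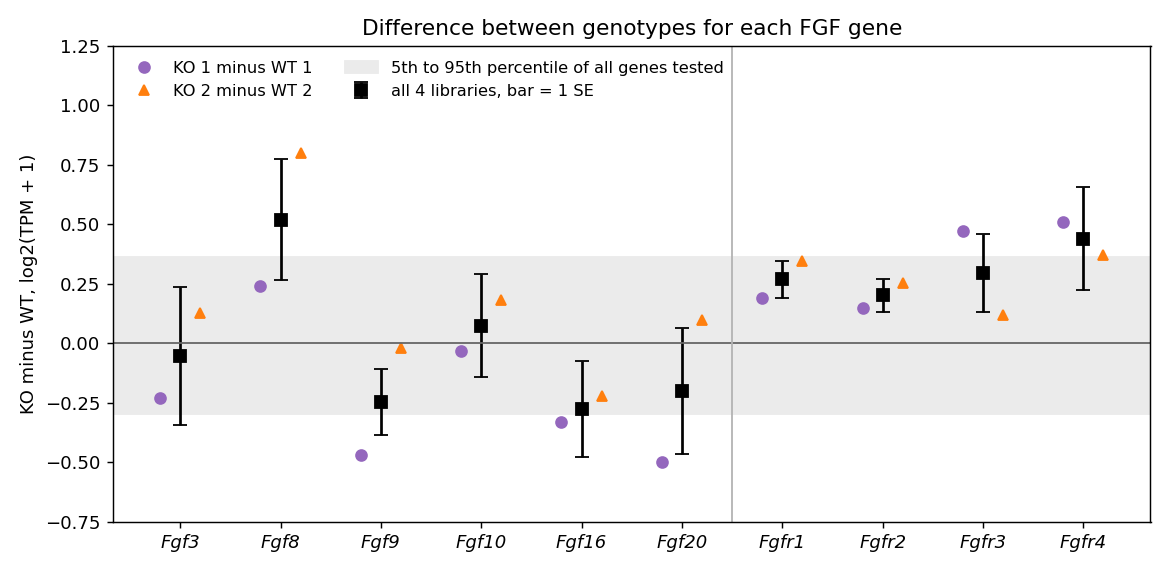
Difference KO minus WT on the log2(TPM + 1) scale for each gene. Black squares are the fit of all 4 libraries with 1 SE, circles KO 1 minus WT 1 and triangles KO 2 minus WT 2, and the grey band holds the middle of all genes tested, from -0.30 to 0.36. The receptors lie above 0 in both numbered pairs, while Fgf3, Fgf10 and Fgf20 lie on opposite sides of 0.

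Genes overlapping on the other strand could share reads with 4 of the 10, since no source used here states the strand setting. They are Micu3 for Fgf20, at 9.40 to 12.0 TPM, and predicted or uncharacterised genes for Fgf10, Fgfr1 and Fgfr3, for which no values were used here.

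Between the libraries numbered 2 and 1, Fgf3, Fgf10, Fgf20 and Fgf8 differed by 0.47, 0.40, 0.35 and 0.31 on the log2(TPM + 1) scale, averaged over the genotypes, while the 4 receptors differed by -0.05 to 0.09. Markers of otic ganglion neurons moved with that number. Their summed level was 336.1 TPM (WT 1), 555.9 TPM (WT 2), 274.3 TPM (KO 1) and 818.2 TPM (KO 2). The libraries thus ranked KO 1, WT 1, WT 2, KO 2 from low to high by neuron markers, and Fgf3, Fgf10 and Fgf20 ranked them in the same order. These 3 of the 10 genes are named because they share that order. How many of all genes tested share it was not counted, and 4 libraries are too few to compare patterns between genes. Over these lists the same difference between numbers, as a mean over genes, was 0.88 for neurons, 0.35 for the prosensory domain, 0.70 for erythroid cells and -0.34 for periotic mesenchyme. The part of such content in these 3 genes was not tested. In bulk tissue, fewer cells of a type and less RNA per cell cannot be told apart.

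Markers of periotic mesenchyme, which expresses Fgfr1 and Fgfr2, stood higher in KO along with the receptors. Of the 12 markers 11 were higher, against 61.6% of all genes tested. The median log2 difference of these markers was 0.24 beside 0.28 for the receptors, and their mean was 0.32 beside 0.30. The mean was 0.38 for KO 1 minus WT 1 and 0.26 for KO 2 minus WT 2. In 3 of the 12 both KO libraries lay above both WT libraries, against 19.2% of all genes tested. In 1 of the 12 both lay below, against 10.5%, and 0 passed the threshold. The summed level of this list was 1060 TPM (WT 1), 899 TPM (WT 2), 1471 TPM (KO 1) and 987 TPM (KO 2). KO 1 was the highest and the genotypes overlapped. The 8 hindbrain markers summed to 129.2 and 94.1 TPM (WT) beside 171.9 and 153.0 TPM (KO), carried by Zic1 and Fabp7, and the other 6 had a mean under 1 TPM. Surface ectoderm markers summed to 8.75 TPM in KO 1 and to 2.54 to 4.48 TPM in the other 3 libraries. Otic epithelium markers stood lower in KO, as did Fgf9 and Fgf16. The part of these tissues in the differences was not tested.

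Expressed relative to 4 epithelial genes of the same library (Epcam, Cdh1, Esrp1 and Cldn7), the median over all genes tested moved by 0.20, to a log2 difference of 0.23. This scaling moves every gene by that same amount, so that it tells the 10 genes no further apart. The receptors were then at 0.40 to 0.64, Fgf8 at 0.72 and Fgf10 at 0.27, above the moved median as before. Fgf9, Fgf16, Fgf20 and Fgf3 were at -0.05, -0.08, -0.01 and 0.14, below it as before. None of the 10 passed the threshold there, with their smallest limma adjusted p at 0.22. Under this scaling 91.7% of all genes tested stood higher in KO, so that this p-value also carries the common shift.

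**Figure D4:**
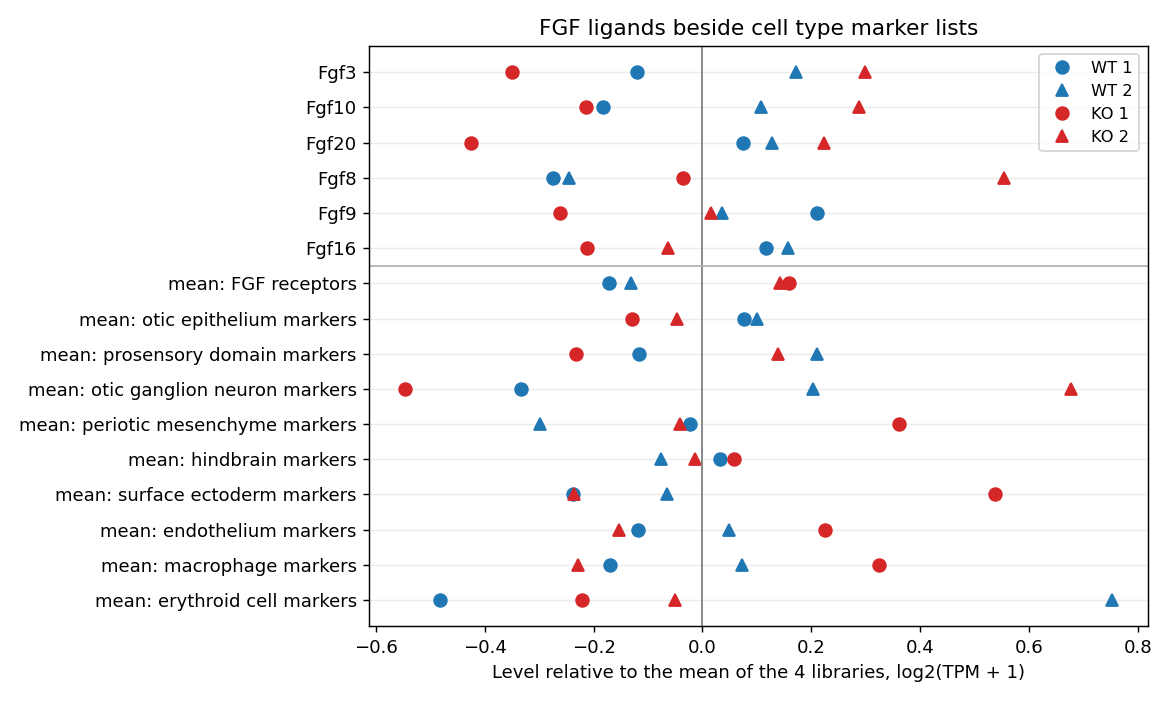
Each ligand, and the mean of the receptors and of each marker list, relative to the mean of the 4 libraries on the log2(TPM + 1) scale, with blue for WT, red for KO, circles for number 1 and triangles for number 2. Fgf3, Fgf10, Fgf20 and the neuron list all place KO 1 lowest and KO 2 highest, whereas the receptor mean separates the colours.

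The stretches before RefSeq start sites differed in base composition and in GC boxes among the genes that had an entry. RefSeq entries on GRCm38.p6 were at hand for Fgf3, Fgf9, Fgf10, Fgfr2, Fgfr3 and Fgfr4, in 7 windows of the 250 bases before a start. The windows of Fgf3, Fgf9, Fgf10 and Fgfr2 and the second of Fgfr3 lay within the annotated gene. Those of Fgfr4 and the first of Fgfr3 lay partly within it. The starts used for Fgf3, Fgfr2 and Fgfr4 are not shared with a GENCODE coding transcript. Shown 5′ to 3′ on the plus strand are 3 windows whose start is shared with a GENCODE coding transcript, 1 for a ligand lower in KO, 1 for a ligand that overlapped and 1 for a receptor. They are chr14:58072436-58072685 for Fgf9, chr13:118714449-118714698 for Fgf10 and chr5:33721474-33721673 for Fgfr3, the last without its annotated exon bases. Capitals mark the GC box, GGGCGG on either strand, a binding sequence of Sp1.
Fgf9: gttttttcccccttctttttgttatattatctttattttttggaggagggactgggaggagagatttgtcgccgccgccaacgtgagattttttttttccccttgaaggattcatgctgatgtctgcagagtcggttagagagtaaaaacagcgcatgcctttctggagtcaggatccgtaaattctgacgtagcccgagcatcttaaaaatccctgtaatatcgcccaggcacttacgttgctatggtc
Fgf10: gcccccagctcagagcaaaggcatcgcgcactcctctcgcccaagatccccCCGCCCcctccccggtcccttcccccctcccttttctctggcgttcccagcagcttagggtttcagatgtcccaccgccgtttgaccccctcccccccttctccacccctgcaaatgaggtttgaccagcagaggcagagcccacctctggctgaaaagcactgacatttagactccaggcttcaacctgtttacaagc
Fgfr3: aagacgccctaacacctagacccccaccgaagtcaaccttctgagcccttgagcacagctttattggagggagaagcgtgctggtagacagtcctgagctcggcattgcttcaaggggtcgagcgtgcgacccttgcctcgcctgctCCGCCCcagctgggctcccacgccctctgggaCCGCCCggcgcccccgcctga
The Fgfr3 stretch holds 2 GC boxes (3 in its whole 250 bases) and the Fgf10 stretch 1, whereas the Fgf9 stretch, at 44.8% G and C, holds none. The whole 250 bases were 61.2% G and C for Fgf10 and 66.8% for Fgfr3, against a median of 52.4% over all 32851 RefSeq windows of this length. A GC box was present in 32.7% of those windows. Among the windows not shown, that of the receptor gene Fgfr2 was 44.0% G and C and held 0 GC boxes. The Fgf3 window was 55.2% G and C with 0 GC boxes, the Fgfr4 window 64.0% with 2, and the second Fgfr3 window 72.8% with 2. The genes with a GC box, Fgf10, Fgfr3 and Fgfr4, stood higher in KO. Of the genes without one, Fgfr2 stood higher and Fgf3 and Fgf9 lower. The signs of Fgf10 and Fgf3 depended on single libraries. Any part of GC boxes in the differences was not tested. The core bound by MEIS proteins, TGACAG, was on either strand in none of the 7 windows and in 15.9% of all windows. The motif TGATNNAT, bound by PBX and HOX proteins together and also sought on both strands, was in the Fgfr2 window alone, and in 7.68% of all windows. These are matches of letters in short windows and not sites.

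Of 12 other secreted FGFs, 3 reached a mean of 1 TPM and were tested, Fgf18, Fgf17 and Fgf15, and 0 passed the threshold. Fgf18, of the same subfamily as Fgf8, was at 6.003 TPM (WT 1), 7.06 TPM (WT 2), 5.66 TPM (KO 1) and 5.47 TPM (KO 2), above Fgf20, Fgf3, Fgf8 and Fgf16 in both WT libraries. Its difference was -0.20 (SE 0.15), and Fgf17 and Fgf15 stood at 0.08 and -0.34. Of the 4 intracellular FGF-like genes, which do not signal through these receptors, 3 were tested and 0 passed, with differences from -0.07 to 0.05.

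Among 10 genes of co-receptors and binding proteins 6 were tested, 5 stood higher, 1 lower and 0 passed, with a median of 0.21. The cadherin Cdh2, which can bind FGF receptors, was at 90.4 and 90.6 TPM (WT) beside 101.2 and 106.4 TPM (KO), a difference of 0.19 (SE 0.067; limma adjusted p = 1.00). Fgfrl1, a receptor without a kinase domain, was at 46.6 TPM (WT 1), 46.8 TPM (WT 2), 45.1 TPM (KO 1) and 45.6 TPM (KO 2), with KO just below WT. Ncam1, a cell adhesion molecule that interacts with FGF receptors and is abundant in neurons, was named after its values were seen. It was at 11.1 and 11.5 TPM (WT) beside 15.5 and 18.9 TPM (KO), a difference of 0.56 (SE 0.13; limma adjusted p = 1.00).

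All 20 genes of heparan sulfate synthesis and its core proteins were tested, with 12 higher, 8 lower, 0 passing and a median of 0.07. The paired sulfatase genes stood on opposite sides, although both enzymes remove sulfate from heparan chains outside the cell. Sulf1 was at 147.6 and 136.7 TPM (WT) beside 125.0 and 118.9 TPM (KO) (difference -0.22, SE 0.075), and Sulf2 at 106.1 and 114.8 TPM (WT) beside 126.7 and 133.2 TPM (KO) (difference 0.23, SE 0.076). Neither pair of genotypes overlapped, and both had a limma adjusted p of 1.00. Of the 20 genes, 5 had both KO libraries above both WT libraries, against 19.2% of all genes tested. In 2 of the 20 both lay below, against 10.5%. The glypican gene Gpc3, the most abundant of the list, was at 294.3 TPM (WT 1), 225.4 TPM (WT 2), 359.9 TPM (KO 1) and 297.5 TPM (KO 2), so that KO 2 lay barely above WT 1.

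Genes downstream of the receptors had medians nearer to that of all genes. Of 19 adaptors and Ras-MAP kinase relay genes 14 stood higher, 5 lower and 0 passed, all between -0.25 and 0.14 with a median of 0.05. The abundant kinase gene Map2k2 was at 162.5 ± 18.3 TPM (WT) beside 167.2 ± 15.4 TPM (KO; SD, n = 2 each). Among 12 feedback and ETS response genes, often read as a sign of FGF signalling, 10 stood higher, 2 lower and 0 passed, with a median of 0.09. In 1 of the 12 both KO libraries lay above both WT libraries, against 19.2% of all genes tested. The feedback phosphatase gene Dusp6 was at 94.7 TPM (WT 1), 74.2 TPM (WT 2), 99.7 TPM (KO 1) and 87.8 TPM (KO 2) and the ETS factor gene Etv5 at 75.4 TPM (WT 1), 63.8 TPM (WT 2), 68.1 TPM (KO 1) and 80.0 TPM (KO 2), with log2 differences of 0.16 and 0.09. Etv4, also an ETS factor gene, had the largest difference of this list, 0.30 (SE 0.18; limma adjusted p = 1.00), at 52.9 TPM (WT 1), 40.8 TPM (WT 2), 50.5 TPM (KO 1) and 65.1 TPM (KO 2). For all 3 genes the genotypes overlapped.

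**Figure D5:**
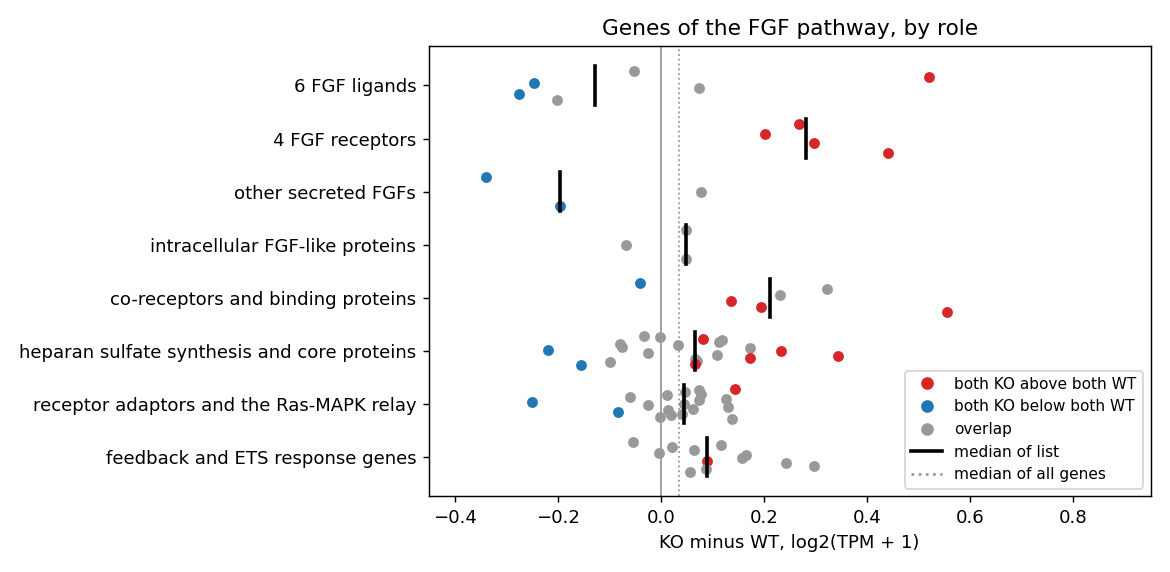
Difference KO minus WT on the log2(TPM + 1) scale for the tested genes of each role, 1 point per gene, coloured by whether the libraries of the genotypes overlapped, with a bar at each list's median and a dotted line at the median of all genes (0.03). The receptor median lies at 0.28 and the relay median at 0.05.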

How the data were processed

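The authors deposited 1 table of gene-level TPM, made with Salmon 0.9.1 and the build GRCm38 per the submitters' processing notes; no source used here states the annotation release. Its decimals look like means of 4 values per library, and of 3 for KO 2. Since TPM values carry no depth, sequencing depth is unknown and counting intervals could not be given; each library summed to 1000000 over 34866 genes. Groups and numbers came from the sample titles. Gene IDs were matched by number to a list of gene symbols, which named 34582, and to GENCODE M21, which gave coordinates.

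The 14496 genes averaging 1 TPM or more, all 10 FGF genes among them, were fitted by genotype alone on log2(TPM + 1). The fit used limma 3.58.1 (R 4.3.3) with a variance trend, two-sided tests and Benjamini-Hochberg adjustment over all genes tested at a threshold of 0.05. The fit was also run on simulated data, with independent normal noise drawn from its own variance estimates. That checks the code and cannot show how the fit does on these 4 libraries. An exact permutation of 2 against 2 libraries cannot go below p = 0.333. The FGF genes and all lists were chosen with earlier results of these data known. Of each list the text names at most the 3 genes with the highest mean TPM, with Ncam1 added after its values were seen. Alternatives were other pseudocounts, filters and scalings, coding genes alone, other moderation, a replicate block, epithelial scaling and leaving out each library.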

Additional observations from a re-analysis of the deposited data

How the results depend on the processing

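Of 135 alternative values of the 10 genes, 129 kept their direction and 6 changed it, none passing the threshold. Of these, Fgf3 at 0.14 relative to epithelial genes follows from a scaling that adds 0.20 to every gene. The other 5 came from single libraries left out, for Fgf3 (from -0.38 to 0.27), Fgf10 (from -0.18 to 0.33) and Fgf20 (from -0.53 to 0.12). Over the same omissions 5 to 8 genes stood higher and 2 to 5 lower, against 6 and 4 with all libraries. A lone library was then assumed to vary like the other genotype. With a mean of at least 5 TPM, 1 of the 5 genes left stood lower. Genes passing the threshold numbered 0 with all libraries and 0 to 10 with 1 left out, 2 without KO 1 and 10 without KO 2, with no FGF gene among them. Across genes, the deviations of number 2 from number 1 in WT and KO correlated at 0.42, but 2 pairs do not establish a pairing. With the replicate block 0 genes passed, and 1178 in place of 507 had an unadjusted p below 0.05. For the FGF genes the block moved no call, and the smallest adjusted p was 0.55 (limma, Fgfr1). Of all genes tested 61.6% stood higher in KO, 51.7% after median-of-ratios scaling and 50.2% after quantile normalization, with the receptors at 0.17 to 0.42 under both. Low genes such as Fgfr4 and Fgf16 are limited by the unknown depth.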
